A study of Mus musculus with 6 samples.

Results

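A set of 10 macrophage and complement genes was followed across the series: the complement subunit genes C1qa, C1qb and C1qc, the growth factor receptor gene Csf1r, the scavenger and lectin receptor genes Mrc1 and Cd163, the surface receptor gene Adgre1 (F4/80), the lysosomal gene Cd68, and the receptor genes Trem2 and Fcgr1. They were taken by symbol, and all 10 of 10 were found among the 38561 genes of the count tables. The series holds RNA-seq of 6 samples, 2 in each of 3 groups, and every group came from NG2-Cre;p53flox/flox mice of mixed background. In these animals Cre is driven by the promoter of the NG2 proteoglycan gene, a marker of pericytes, and removes the loxP-flanked stretch of Trp53, the gene of the tumour suppressor p53. The first group was normal perivascular cells taken out of skeletal muscle with an NG2 antibody (NG2 cells), and these carried the same alleles as the tumours. The second group was primary osteosarcoma, of the right tibia in replicate 1 and of the lumbar spine in replicate 2. The third was primary soft tissue sarcoma of the subcutis. The age of the animals, and whether replicates came from separate animals, were not given in the sources used here, so p-values measure only the spread between these samples.

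Tissue macrophages are phagocytes that depend on signalling through the CSF1 receptor, whose ligands are CSF1 and interleukin-34, and their transcription programme is set by the factor PU.1, the product of Spi1. They are a main source of complement C1q, a hexamer of A, B and C chains that binds antibody on a surface and, with the proteases C1r and C1s, starts the classical complement pathway. The mannose receptor (Mrc1) and CD163 take up glycoproteins and haptoglobin-bound haemoglobin, TREM2 senses lipids and signals through the adaptor DAP12 (Tyrobp), and Fcgr1 encodes the high-affinity IgG receptor, which signals through the Fc gamma chain (Fcer1g). CD68 sits in lysosomes of macrophages and also of osteoclasts, the bone-resorbing cells that arise from the same precursors under CSF1.

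The C1q genes lie next to each other on chromosome 4 (GRCm38), all on the minus strand: C1qb (ENSMUSG00000036905) at 136880129 to 136886187, C1qc (ENSMUSG00000036896) at 136889804 to 136893065 and C1qa (ENSMUSG00000036887) at 136895917 to 136898803. The whole locus spans 18675 bases, with gaps of 3616 bases between C1qb and C1qc and 2851 bases between C1qc and C1qa. The other members lie apart, Mrc1 on chromosome 2 at 14229392 to 14332057, Fcgr1 on chromosome 3 at 96282909 to 96293969, Cd163 on chromosome 6 at 124304656 to 124330527, Cd68 on chromosome 11 at 69664213 to 69666153, and Trem2 and Adgre1 on chromosome 17 at 48346401 to 48354147 and 57358691 to 57483527. All 10 are protein-coding. Csf1r shares 873 exon bases (15.1% of its exon length) with Hmgxb3 on the opposite strand, and no other member overlaps an exon of another gene. The strand setting of the counts was not given in the sources used here. Hmgxb3 held 2737 counts over the 6 libraries against 57244 for Csf1r.

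RefSeq (GRCm38.p6) gave the 250 bases upstream of the start for 7 of the 10 members, and each was searched on both strands for GAGGAA, the core of the PU.1 site. The letters were found in 6 of the 7 (C1qb, C1qc, Mrc1, Cd68, Trem2 and Fcgr1, but not Cd163), and in 23.3% of 32851 promoters of the same length. Counted in bases from the start, the nearest match was centred at -27 in C1qb, -37 in Trem2, -52 in Fcgr1, -222 in Cd68, -190 in C1qc and -32 in Mrc1, which held 3 matches. A match describes these letters only and is no evidence of binding. Promoters are printed for 4 members whose values take different courses, a C1q gene, Cd68 and the receptor genes Trem2 and Fcgr1. In them, capitals mark GAGGAA or its reverse complement TTCCTC, 5′ to 3′ on the strand of the gene, at chr4:136886201-136886450 (minus), chr11:69666171-69666420 (minus), chr17:48346151-48346400 (plus) and chr3:96293970-96294219 (minus).
C1qb: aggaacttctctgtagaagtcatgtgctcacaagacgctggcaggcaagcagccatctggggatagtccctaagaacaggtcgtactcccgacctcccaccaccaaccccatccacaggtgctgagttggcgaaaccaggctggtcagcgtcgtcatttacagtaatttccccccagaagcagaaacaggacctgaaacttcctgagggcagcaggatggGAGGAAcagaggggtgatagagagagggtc
Cd68: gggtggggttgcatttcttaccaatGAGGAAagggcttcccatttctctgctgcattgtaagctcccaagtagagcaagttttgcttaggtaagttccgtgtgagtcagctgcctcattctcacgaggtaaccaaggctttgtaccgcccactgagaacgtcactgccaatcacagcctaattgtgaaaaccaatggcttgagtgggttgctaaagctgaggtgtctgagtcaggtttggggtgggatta
Trem2: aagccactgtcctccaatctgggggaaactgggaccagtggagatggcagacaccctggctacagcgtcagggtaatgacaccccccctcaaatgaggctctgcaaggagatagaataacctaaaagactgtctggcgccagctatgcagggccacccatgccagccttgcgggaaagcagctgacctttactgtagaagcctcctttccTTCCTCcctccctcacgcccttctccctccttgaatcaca
Fcgr1: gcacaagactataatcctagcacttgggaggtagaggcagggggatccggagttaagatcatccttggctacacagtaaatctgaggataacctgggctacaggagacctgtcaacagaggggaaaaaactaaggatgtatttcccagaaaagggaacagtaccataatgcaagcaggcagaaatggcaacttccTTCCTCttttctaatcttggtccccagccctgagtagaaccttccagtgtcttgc

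Reads counted on genes came to between 27693585 and 58126832 per library. Each group had a sequencing lane of its own (lane 4 for NG2 cells, lane 5 for osteosarcoma, lane 6 for soft tissue sarcoma). Lane and group therefore cannot be told apart. In comparisons with NG2 cells, tumour state, tissue of origin and selection with the NG2 antibody also go together and cannot be told apart. The osteoblast marker list checked the label of the bone tumours: its summed level was 38192 and 39333 CPM (read counts scaled to library size) in osteosarcoma and 102 and 136 CPM in the NG2 cell libraries. The same sum was 4354.5 and 4001 CPM in the soft tissue sarcomas, mostly Col1a1 (2389 and 1779 CPM) and Spp1 (1916 and 2161 CPM). In these tumours Sp7 had 0 counts, and Alpl had 2.18 and 1.72 CPM, below its 21 and 22.8 CPM in NG2 cells. The label of the sorted cells was less clear, and pericyte markers pointed both ways. Of 10 such markers, edgeR called Rgs5 lower in each tumour type and 3 others higher in osteosarcoma. Rgs5 reached 772 and 1290 CPM for sorted cells against 17.4 to 151 CPM over the 4 tumours. The sums of all 10 overlapped, at 918 and 1487 CPM for sorted cells against 384 to 943 CPM over the tumours. Cspg4, the gene of NG2, stood at 38.6 and 30.6 CPM in the NG2 cell libraries, 118 and 37.7 CPM in the osteosarcomas and 188 and 88.7 CPM in the soft tissue sarcomas, and the NG2 cell libraries held 5113 and 1725 CPM of B cell markers. The floxed gene Trp53 had 101 and 82.3 CPM in the NG2 cell libraries and 24.3 to 32.6 CPM in the 4 tumours, which checks the allele only weakly, since counts of the whole gene include exons that stay and the NG2 cells carried the floxed alleles too. In bulk samples, fewer cells of a type and less RNA per cell cannot be told apart, for every level given here.

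C1q transcripts lay in the same order of groups for all 3 subunits. C1qa had 20.2 and 21.5 CPM in the NG2 cell libraries, 145 and 63.7 CPM in the osteosarcomas, and 388 and 285 CPM in the soft tissue sarcomas. C1qb had 76.9 and 59.5 CPM, then 399 and 137 CPM, then 1076 and 840.3 CPM in the same order. C1qc had 37.9 and 30.5 CPM, then 205 and 71.6 CPM, then 552 and 417 CPM. For each of the 3 genes, both NG2 cell libraries were lowest and both soft tissue sarcomas highest, and no groups overlapped. Replicates lay within 1.36-fold of each other in NG2 cells and soft tissue sarcoma, whereas osteosarcoma 1 exceeded osteosarcoma 2 by 2.28-fold to 2.92-fold.

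All 3 C1q genes rose in both tumour types against NG2 cells, where 10.5% (osteosarcoma) and 9.89% (soft tissue sarcoma) of all tested genes rose. In osteosarcoma C1qa rose 5.0-fold (log2 fold change 2.32 ± 0.45, SE, n = 2 per group; edgeR adjusted p = 0.0212), C1qc 4.05-fold (2.02 ± 0.53, adjusted p = 0.0441) and C1qb 3.93-fold (1.98 ± 0.53, adjusted p = 0.0476). In soft tissue sarcoma C1qa rose 16.1-fold (4.01 ± 0.48, edgeR adjusted p = 0.00988), C1qc 14.2-fold (3.83 ± 0.57, adjusted p = 0.0135) and C1qb 14.1-fold (3.81 ± 0.57, adjusted p = 0.0140). Between the tumour types the C1q genes differed by 1.69 to 1.84 on the log2 scale towards soft tissue sarcoma, which edgeR did not call (adjusted p = 0.168 for C1qa and 0.193 for C1qb and C1qc). DESeq2 called all 3 in that comparison (adjusted p = 0.0116, 0.0196 and 0.0212 for C1qa, C1qb and C1qc). It called 1929 genes there, against 27 by edgeR.

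**Figure D1:**
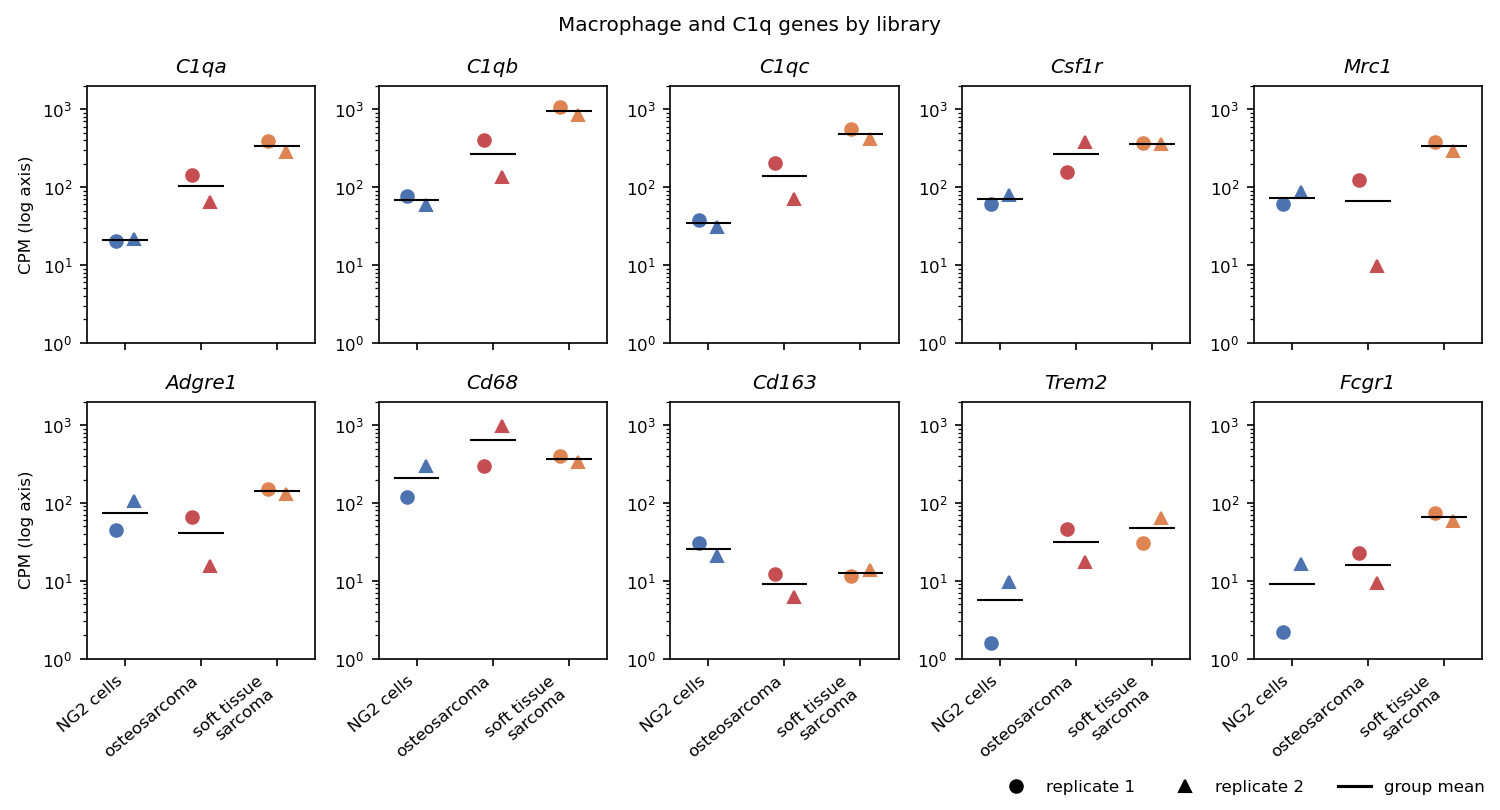
Normalised read counts (CPM, log axis) of the 10 macrophage and C1q genes in each of the 6 libraries; circles are replicate 1, triangles replicate 2 and bars the mean of 2. The C1q genes step up from NG2 cells over osteosarcoma to soft tissue sarcoma, whereas Mrc1 and Adgre1 are lowest in osteosarcoma 2 and Cd163 is highest in NG2 cells.

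The chains of C1q are assembled in equal numbers, and their transcripts kept a nearly fixed proportion here. Levels were taken per length (RPKM, the scaled level divided by exon length). Across the 6 libraries, C1qb made up 56.2% to 64.4% of the summed C1q level, C1qa 17.7% to 27.3% and C1qc 16.5% to 17.9%. These shares rest on exon lengths of 1088, 1040 and 1931 bases in the same order. Whether counts scale with length in this amplified, oligo(dT)-primed cDNA was not tested. The ratio of C1qb to C1qc lay between 3.40 and 3.60, although the summed C1q level itself ran from 91.2 to 1648 RPKM. C1qa moved a little apart: its ratio to C1qc was 0.991 and 1.31 in NG2 cell samples, 1.31 and 1.65 in the osteosarcomas, and 1.30 and 1.27 in the soft tissue sarcomas. Across the 6 libraries the log2 CPM of C1qb and C1qc correlated with Pearson's r of 0.9998, given as a description of points that also share library and depth.

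Csf1r, the receptor of both macrophage growth factors, had 60.8 and 79.1 CPM in the NG2 cell libraries, 158 and 380.3 CPM in the osteosarcomas and 368 and 359 CPM in the soft tissue sarcomas. Both NG2 cell libraries lay below all tumours, and the tumour types overlapped. It rose 3.84-fold in osteosarcoma (log2 fold change 1.94 ± 0.46, edgeR adjusted p = 0.0343) and 5.20-fold in soft tissue sarcoma (2.38 ± 0.46, adjusted p = 0.0234). The difference between the tumour types was 0.44 ± 0.44 on the log2 scale (adjusted p = 0.694), with a 95% confidence interval from -0.64 to 1.51. Unlike the C1q genes, Csf1r was higher in osteosarcoma 2 than in osteosarcoma 1, by 2.41-fold.

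Both ligands of this receptor and the factor PU.1 were measured. Csf1 had 9.48 and 18.7 CPM in the NG2 cell libraries, 149 and 307 CPM in the osteosarcomas and 123 and 152 CPM in the soft tissue sarcomas. It rose 16.2-fold in osteosarcoma (log2 fold change 4.02 ± 0.54, edgeR adjusted p = 0.00917) and 9.74-fold in soft tissue sarcoma (3.28 ± 0.52, adjusted p = 0.0151). Il34 had 12.4 and 12.6 CPM in the NG2 cell libraries, 2.41 and 6.26 CPM in the osteosarcomas and 150.4 and 136 CPM in the soft tissue sarcomas. It rose 11.4-fold in soft tissue sarcoma (3.51 ± 0.50, adjusted p = 0.0129), and its log2 fold change in osteosarcoma was -1.54 ± 0.47 (adjusted p = 0.0641; -2.37, adjusted p = 0.0135, without osteosarcoma 2). Between the tumour types the Il34 difference was 5.05 ± 0.54 (adjusted p = 0.0520). That difference was not called by edgeR on all libraries. It ranged from 4.55 to 5.90 over the 6 fits that left out 1 library. DESeq2 on all libraries called it, among 1929 genes that it called between the tumour types. Spi1, which encodes PU.1, had 15.7 and 19.4 CPM in the NG2 cell libraries, 7.28 and 51.3 CPM in the osteosarcomas and 26.1 and 26.3 CPM in the soft tissue sarcomas, with log2 fold changes of 0.74 and 0.58 against NG2 cells (adjusted p = 0.540 and 0.640). Without osteosarcoma 2 its value in osteosarcoma was -1.25 (adjusted p = 0.106), and without osteosarcoma 1 it was 1.55 and passed (adjusted p = 0.0433).

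Mrc1 and Adgre1, both surface receptors of resident macrophages, set the osteosarcomas apart from each other. Mrc1 had 60.1 and 85.7 CPM in the NG2 cell libraries, 124 and 9.67 CPM in the osteosarcomas, and 381 and 291 CPM in the soft tissue sarcomas. Adgre1 had 44.5 and 106 CPM in the NG2 cell libraries, 66.4 and 15.4 CPM in the osteosarcomas and 153 and 131 CPM in the soft tissue sarcomas. In both genes the soft tissue sarcomas lay above every other library and osteosarcoma 2 was the lowest of all. The gap between the osteosarcoma replicates was 12.8-fold for Mrc1 and 4.31-fold for Adgre1.

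Neither gene was called in any comparison. For Mrc1 the log2 fold change was -0.13 ± 0.99 in the osteosarcomas and 2.20 ± 1.04 in soft tissue sarcoma against NG2 cells (edgeR adjusted p = 0.940 and 0.178), and 2.33 ± 1.04 between the tumour types (adjusted p = 0.353). The Mrc1 value in osteosarcoma turned to 0.78 (adjusted p = 0.183) without osteosarcoma 2, and to -2.92, a called fall (adjusted p = 0.0163), without osteosarcoma 1. Without osteosarcoma 1 the difference between the tumour types was called as well (5.15, adjusted p = 0.0440). Leaving out either osteosarcoma library also brought Mrc1 past the threshold between soft tissue sarcoma and NG2 cells. For Adgre1 the values were -0.88 ± 0.73, 0.91 ± 0.73 and 1.79 ± 0.74 in the same order (adjusted p = 0.412, 0.397 and 0.320).

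Cd68 ran the other way within osteosarcoma. It had 118 and 294.53 CPM in the NG2 cell libraries, 294.25 and 979 CPM in the osteosarcomas, and 399 and 339 CPM in the soft tissue sarcomas. Osteosarcoma 2 held the highest value, and osteosarcoma 1 was level with NG2 cell replicate 2. Its log2 fold change was 1.63 ± 0.67 in osteosarcoma (edgeR adjusted p = 0.132) and 0.84 ± 0.66 in soft tissue sarcoma (adjusted p = 0.394). Without osteosarcoma 1 the first value was 2.24 and passed (adjusted p = 0.0460), and without osteosarcoma 2 it was 0.53.

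The library with the high Cd68 and Csf1r and the low Mrc1 and Adgre1 was also the one rich in osteoclast transcripts. The 12 osteoclast markers that were tested summed to 21479 CPM in osteosarcoma 2, 1042 CPM in osteosarcoma 1 and 347 to 707 CPM in the other 4 libraries. Ctsk, the collagen-degrading protease of osteoclasts, had 6018 CPM in osteosarcoma 2 and 276 CPM in osteosarcoma 1. Osteoclast marker CPM exceeded the summed CPM of the 10 members 12.7-fold in osteosarcoma 2, while that ratio lay between 0.159 and 1.18 elsewhere. The part of osteoclasts in the Cd68 and Csf1r values was not tested.

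Cd163 was the member with its highest values in the sorted cells. It had 30.1 and 20.9 CPM in the NG2 cell libraries, 12.1 and 6.26 CPM in the osteosarcomas, and 11.6 and 13.6 CPM in the soft tissue sarcomas. Both NG2 cell libraries lay above all tumours. The log2 fold changes were -1.48 ± 0.47 in osteosarcoma (edgeR adjusted p = 0.0706) and -1.02 ± 0.46 in soft tissue sarcoma (adjusted p = 0.166). DESeq2 called the first of them.

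Trem2 had 1.58 and 9.65 CPM in the NG2 cell libraries, 45.7 and 17.6 CPM in the osteosarcomas, and 30.4 and 64.4 CPM in the soft tissue sarcomas. All tumours lay above both NG2 cell libraries, but replicates differed by 2.12-fold to 6.11-fold within each group. Its log2 fold changes were 2.49 ± 0.95 in osteosarcoma (edgeR adjusted p = 0.109) and 3.07 ± 0.97 in soft tissue sarcoma (adjusted p = 0.0736), with 95% confidence intervals from 0.17 to 4.81 and from 0.70 to 5.45. Fcgr1 had 2.19 and 16.2 CPM in the NG2 cell libraries, 22.6 and 9.35 CPM in the osteosarcomas, and 74.1 and 59.2 CPM in the soft tissue sarcomas. The soft tissue sarcomas lay above the other groups, which overlapped each other. For Fcgr1 the log2 fold change was 0.80 ± 0.90 in osteosarcoma (adjusted p = 0.546) and 2.86 ± 0.96 in soft tissue sarcoma (adjusted p = 0.0841). DESeq2 called Trem2 in both tumour types and Fcgr1 in the soft tissue sarcomas. The adaptors of these receptors varied less: Tyrobp lay between 92.0 and 290.1 CPM and Fcer1g between 84.4 and 447 CPM over the 6 libraries, and neither was called in either tumour type.

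Of the 10 members, 4 rose and 0 fell in osteosarcoma against NG2 cells (C1qa, C1qb, C1qc and Csf1r), where 21.5% of the 19024 tested genes were called, 10.5% higher and 11% lower. The same 4 rose and 0 fell in soft tissue sarcoma, where 19.3% of tested genes were called, 9.89% higher and 9.40% lower. The median log2 fold change of the members was 1.78 in the osteosarcomas and 2.62 in the soft tissue sarcomas, beside 0.04 and 0 over all tested genes. Both comparisons share the NG2 cell libraries, so they are not independent of each other. At an unadjusted p under 0.05 the counts were 6 of 10 members in either tumour type, beside 39.1% and 37.5% of tested genes. By position alone, 5 members lay above and 1 below NG2 cells with no overlap in osteosarcoma (32.7% and 32.4% of tested genes), and 9 lay above and 1 below in soft tissue sarcoma (35.8% and 34.6%).

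These calls depended on single libraries. Leaving out NG2 cells 1, NG2 cells 2, soft tissue sarcoma 1 or soft tissue sarcoma 2 took the number of members called to 0 in both comparisons, while the log2 fold changes of C1qa stayed between 1.61 and 2.81 in the osteosarcomas and between 3.79 and 4.24 in the soft tissue sarcomas over the 6 fits that left out 1 library. Without either soft tissue sarcoma library no gene at all passed between soft tissue sarcoma and NG2 cells, which holds for every call of that comparison, and without NG2 cells 1 or NG2 cells 2 the genes called there went from 3671 to 793 and 734. The soft tissue sarcoma calls of Csf1, Il34, Clec4n, Lrp1 and Syk were among those lost without NG2 cells 1 and without NG2 cells 2. In osteosarcoma against NG2 cells the genes called went from 4086 to between 1278 and 1709 without one of these 4 libraries. Without osteosarcoma 1 the called members in osteosarcoma were C1qa, Csf1r, Cd68 and Mrc1, and C1qb and C1qc came to 1.00 and 1.06 on the log2 scale (edgeR adjusted p = 0.0890 and 0.0803). Without osteosarcoma 2 the called members were C1qa, C1qb, C1qc and Csf1r, with Csf1r at 1.19 (adjusted p = 0.0486). With only the 4 libraries of the 2 groups in the fit, C1qa alone was called in osteosarcoma.

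**Figure D2:**
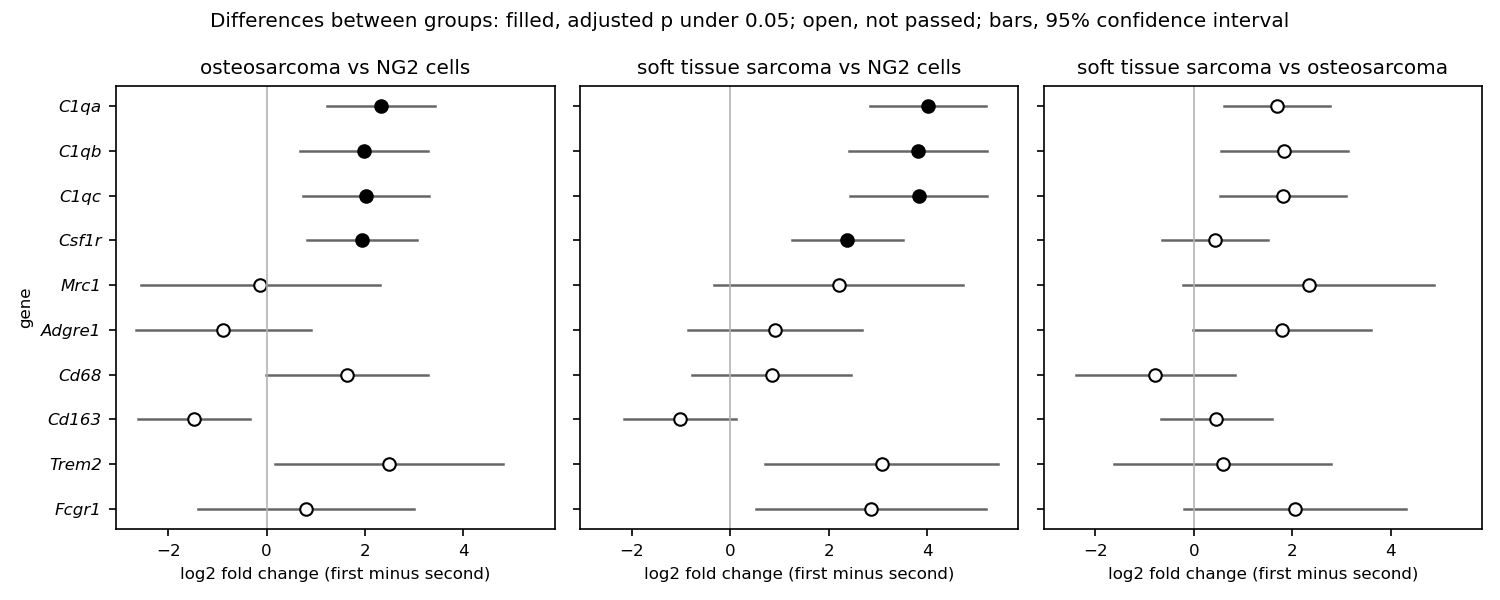
Log2 fold changes of the 10 members in the 3 comparisons of groups, first group minus second, with 95% confidence intervals; filled points passed an edgeR adjusted p of 0.05. C1qa, C1qb, C1qc and Csf1r are filled in both comparisons with NG2 cells, and no point is filled between the tumour types.

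Between the tumour types 0 of 10 members were called by edgeR, with 3 at an unadjusted p under 0.05 (the C1q genes). DESeq2 called 3 members, among 1929 genes that it called between the tumour types. In this comparison 0.142% of all tested genes were called by edgeR, 0.0841% higher and 0.0578% lower, and 15.9% had an unadjusted p under 0.05. The members' median log2 fold change, soft tissue sarcoma minus osteosarcoma, was 1.74 beside -0.03 over all tested genes. The shift was not particular to the members. Medians were 1.52 for other macrophage, 1.55 for monocyte, 1.87 for T cell and 3.13 for dendritic cell markers. Those of B cell (1.36) and neutrophil (0.45) markers were also positive, and that of osteoclast markers was -4.38. Of the 10 members, 6 lay higher in both soft tissue sarcomas than in both osteosarcomas (C1qa, C1qb, C1qc, Mrc1, Adgre1 and Fcgr1) and 0 lay lower, beside 25.8% and 24.5% of tested genes. The remaining 4 (Csf1r, Cd68, Cd163 and Trem2) overlapped between the tumour types. Without osteosarcoma 1, Mrc1 was called and no other member.

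Per length, Cd68 and C1qb were the most abundant members in both NG2 cell libraries and both osteosarcomas, and C1qb and C1qa in both soft tissue sarcomas. The lowest member was Trem2 in both NG2 cell libraries and Cd163 in all 4 tumours. C1qb reached 989 and 772 RPKM in soft tissue sarcoma, and Cd68 reached 778 RPKM in osteosarcoma 2 against 126 RPKM of C1qb in the same library. In soft tissue sarcoma the order of the 10 genes was identical in both replicates (C1qb, C1qa, Cd68, C1qc, Csf1r, Mrc1, Adgre1, Fcgr1, Trem2, Cd163), which was not so in the other groups.

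Relative to Csf1r in the same library, the members fell into different patterns. Csf1r itself had 65.9 RPKM in osteosarcoma 2, beside 27.3 RPKM in osteosarcoma 1. It had 63.7 and 62.2 RPKM in the soft tissue sarcomas and 10.5 and 13.7 RPKM in NG2 cells. The part of osteoclasts in the ratios of osteosarcoma 2 was not tested. The mean C1q subunit level was 3.48 and 2.22 times the Csf1r level per length in NG2 cells, 8.62 and 6.77 times in the soft tissue sarcomas, 7.49 times in osteosarcoma 1 and 1.14 times in osteosarcoma 2. Mrc1 held a ratio of 0.713 to 0.982 in 5 libraries and 0.0230 in osteosarcoma 2. Adgre1 had ratios of 1.31 and 2.39 in NG2 cell samples, 0.648 to 0.752 in osteosarcoma 1 and the soft tissue sarcomas, and 0.0723 in osteosarcoma 2. The Cd163 ratio was 0.524 and 0.280 in NG2 cell samples and 0.0174 to 0.0810 in the tumours. Cd68 stood at 8.92 and 17.1 times Csf1r in NG2 cells, 8.58 and 11.8 times in the osteosarcomas and 4.99 and 4.33 times in the soft tissue sarcomas. Set against Adgre1 instead, Cd68 was 6.68 to 11.4 times higher per length in 5 libraries and 163 times higher in osteosarcoma 2. Osteosarcoma 1 lay close to the soft tissue sarcomas in the C1q, Mrc1 and Adgre1 ratios, and osteosarcoma 2 lay below them. No test was run on the ratios.

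**Figure D3:**
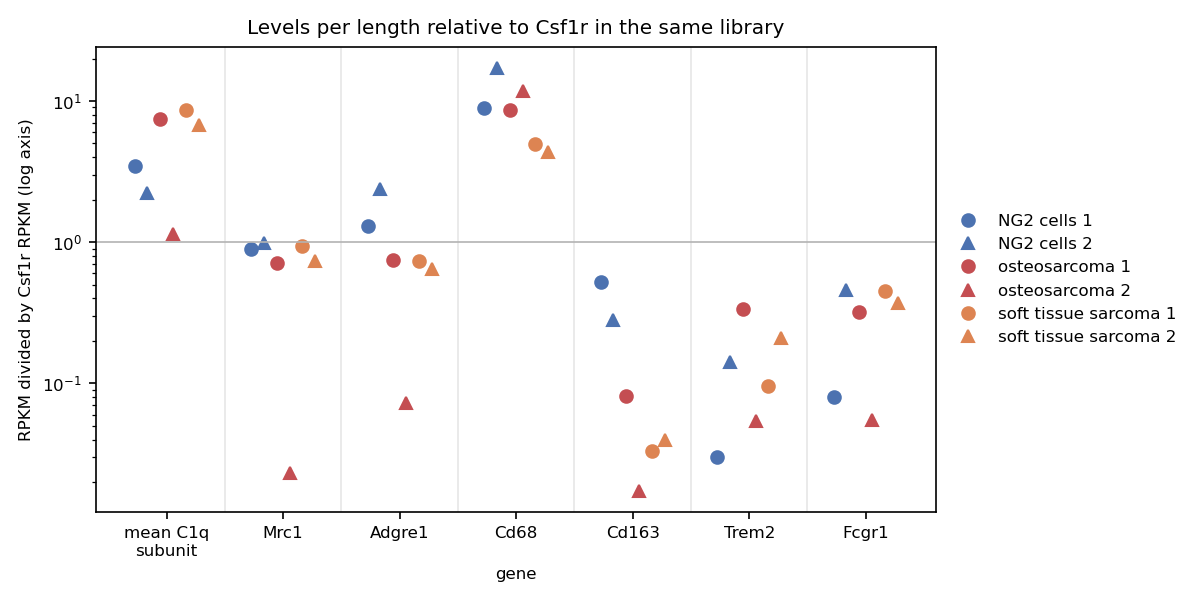
Level per length (RPKM) of each gene or of the mean C1q subunit divided by that of Csf1r in the same library, on a log axis; circles are replicate 1 and triangles replicate 2, and the line marks a ratio of 1. Osteosarcoma 2 lies far below the other libraries for Mrc1 (0.0230) and Adgre1 (0.0723), and the NG2 cells lie above the tumours for Cd163.

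Of 25 other macrophage markers, 9 rose and 1 fell in soft tissue sarcoma, and 2 rose and 5 fell in osteosarcoma. Over all tested genes 9.89% rose and 9.40% fell in soft tissue sarcoma, and 10.5% rose and 11% fell in osteosarcoma. Msr1, a class A scavenger receptor, had 6.84 and 8.46 CPM in the NG2 cell libraries, 42.8 and 42.7 CPM in the osteosarcomas and 99.3 and 72.7 CPM in the soft tissue sarcomas, a rise of 5.59-fold and 11.2-fold (edgeR adjusted p = 0.00820 and 0.00806). Ms4a7, a macrophage membrane protein, rose 13.2-fold in soft tissue sarcoma (adjusted p = 0.0135), and the lectin gene Clec4n rose 9.44-fold (adjusted p = 0.0120). Marco, a scavenger receptor of particular tissue macrophages, had 26.9 and 10.4 CPM in the NG2 cell libraries and 0 counts in all 4 tumours. It was at least 503-fold lower in osteosarcoma and at least 555-fold lower in soft tissue sarcoma, taking 3 counts over a group in place of 0, and its call in osteosarcoma was lost without NG2 cells 1 (adjusted p = 0.0573). Ptprc, the pan-leukocyte antigen CD45, went against the C1q genes in both comparisons with NG2 cells (edgeR adjusted p = 0.00419 and 0.00823). It had 1328 and 1131 CPM in the NG2 cell libraries, 49.8 and 56.0 CPM in the osteosarcomas, and 132 and 87.1 CPM in the soft tissue sarcomas. Between the tumour types it lay higher in soft tissue sarcoma, as did the C1q genes, and was not called (log2 fold change 1.05, adjusted p = 0.194). The part of lymphocytes in the Ptprc values was not tested.

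Genes that act beside or after C1q in the complement cascade were called in both directions, to be read against the 21.5% (osteosarcoma) and 19.3% (soft tissue sarcoma) of all tested genes that were called. Of 10 tested genes of the classical and lectin pathways, 2 rose and 1 fell in osteosarcoma, and 1 rose and 0 fell in soft tissue sarcoma. The protease gene C1ra rose in osteosarcoma, from 10.5 and 13.5 CPM to 46.7 and 39.7 CPM (3.61-fold, edgeR adjusted p = 0.0193), and its partner C1s1 lay between 21.1 and 35.8 CPM in all libraries. The C1ra call was lost without either NG2 cell library or either soft tissue sarcoma library (adjusted p from 0.0519 to 0.0807). Colec12, a membrane collectin with a collagen-like stretch, rose 17.6-fold and 15.6-fold (adjusted p = 0.00497 and 0.00785). C3, the central component, fell from 31.8 and 129 CPM to 4.32 and 8.46 CPM in the osteosarcomas and 7.80 and 12.4 CPM in the soft tissue sarcomas (adjusted p = 0.0272 and 0.0435). In osteosarcoma the C3 call was lost without NG2 cells 2, osteosarcoma 1 or either soft tissue sarcoma (adjusted p from 0.0589 to 0.0878). The soft tissue sarcoma value went to -1.64 on the log2 scale and lost its call without NG2 cells 2 (adjusted p = 0.165), and without either soft tissue sarcoma (adjusted p = 0.224 and 0.184). Among 16 complement receptors and regulators, 1 rose and 3 fell in osteosarcoma, and 1 rose and 4 fell in soft tissue sarcoma. Lrp1, an endocytic receptor of phagocytes and many other cells, was the gene that rose in both (5.19-fold and 7.96-fold, adjusted p = 0.0200 and 0.0142). Its call in osteosarcoma was lost without NG2 cells 1 or NG2 cells 2 (adjusted p = 0.0921 and 0.0635).

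Partners of Csf1r, Trem2 and Fcgr1 were counted in 3 lists, beside 10.5% of all tested genes higher and 11% lower in osteosarcoma, with 9.89% higher and 9.40% lower in soft tissue sarcoma. Of 15 tested genes of the CSF1 receptor axis, 1 rose and 5 fell in osteosarcoma, and 2 rose and 3 fell in soft tissue sarcoma. Irf8, a factor of monocyte and dendritic cell development, fell from 231 and 177 CPM to 24.3 and 21.6 CPM in osteosarcoma (edgeR adjusted p = 0.00565). Of 16 genes of TREM2 and DAP12 signalling, 0 rose and 6 fell in osteosarcoma, and 1 rose and 6 fell in soft tissue sarcoma. The kinase gene Syk fell from 318 and 194 CPM to 25.0 and 29.7 CPM in the soft tissue sarcomas (adjusted p = 0.0165), and Plcg2, the phospholipase downstream of it, fell 5.24-fold and 5.34-fold (adjusted p = 0.00875 and 0.0108). Of 12 Fc receptor genes, 0 rose and 6 fell in osteosarcoma, and 0 rose and 5 fell in soft tissue sarcoma, led by the B cell genes Fcrl1, Fcer2a and Fcmr. Syk, Plcg2, Irf8 and these Fc receptors are also genes of B cells, and the part of B cells in the falls was not tested.

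Genes of macrophage activation were counted in a classical and an alternative list, against 11% of all tested genes lower in osteosarcoma and 9.40% in soft tissue sarcoma. Of 14 genes of classical activation, 0 rose and 10 fell in osteosarcoma, and 1 rose and 9 fell in soft tissue sarcoma. The chemokine gene Ccl4 fell from 271 and 262 CPM to 7.94 and 4.44 CPM in the osteosarcomas and 14.2 and 28.1 CPM in the soft tissue sarcomas (edgeR adjusted p = 0.00552 and 0.0110). The exception was Ccl2, a chemokine that draws in monocytes, with 237 and 401 CPM in the NG2 cell libraries, 62.2 and 44.3 CPM in the osteosarcomas and 885 and 823 CPM in the soft tissue sarcomas. Ccl2 was the listed gene of this group called between the tumour types, 16.0-fold higher in soft tissue sarcoma (adjusted p = 0.0459). That call held without osteosarcoma 2 and was lost without any other single library (adjusted p from 0.0526 to 0.273). Of 15 genes of alternative activation and scavenging, 1 rose and 7 fell in osteosarcoma, and 0 rose and 4 fell in soft tissue sarcoma. Retnla, an alternative activation marker, had 110 and 127 CPM in the NG2 cell libraries and 0 to 0.107 CPM in the tumours. The fatty acid transporter gene Cd36 fell from 648 and 1464 CPM to between 2.43 and 10.1 CPM (adjusted p = 0.0102 and 0.0119). The NG2 cell libraries also held more B cell, T cell, dendritic cell and endothelial transcripts than the tumours. The part of those cells in the falls of both lists was not tested, so the falls do not describe macrophages alone.

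Markers of other blood cells moved strongly between the groups and stand beside all comparisons with NG2 cells. Among all tested genes 10.5% rose and 11% fell in osteosarcoma, and 9.89% rose and 9.40% fell in soft tissue sarcoma. B cell markers (8 of 8 fell in both tumour types) summed to 5113 and 1725 CPM in the NG2 cell libraries and 2.75 to 14.5 CPM in tumours. T cell markers (8 of 8 fell in both) summed to 664 and 733 CPM against 6.25 to 29.4 CPM. Dendritic cell markers summed to 4881 and 2264 CPM against 38.7 to 133 CPM, with 8 and 9 of 12 falling. Most of that sum in NG2 cells was Ccr7 (3654 and 1522 CPM) and H2-DMb2 (810 and 297 CPM), and Flt3 had 28.0 and 21.6 CPM. The part of lymphocytes in the Ccr7 and H2-DMb2 values was not tested. Neutrophil markers were uneven, at 73.1 CPM in NG2 cells 1 and 3727 CPM in NG2 cells 2 against 12.6 to 200 CPM in tumours, with 6 and 3 of 9 falling. Of 11 monocyte markers, 0 rose and 4 fell in osteosarcoma, and 1 rose and 3 fell in soft tissue sarcoma. Their sum was 1671 and 1935 CPM for NG2 cells, 315 CPM in osteosarcoma 1 and 3236 CPM in osteosarcoma 2. For soft tissue sarcoma it was 2970 and 2778 CPM, so 3 of 4 tumours lay above the NG2 cells. Most of the sum in those 3 tumours was the fibronectin gene Fn1 (3051, 2134.5 and 1866 CPM). Fn1 had 36.8 and 252 CPM for NG2 cells, so the order of the sums rests on this gene. The median log2 fold change of the 11 markers against NG2 cells was -2.94 (osteosarcoma) and -0.71 (soft tissue sarcoma). Cd79a, part of the B cell receptor, was at or under 0.674 CPM in every tumour. The members themselves summed to 452 and 724 CPM in the NG2 cell libraries, 1472 and 1689.5 CPM in the osteosarcomas and 3434 and 2799 CPM in the soft tissue sarcomas. The NG2 cell libraries were thus lowest in this sum and highest in the B and T cell sums. Between the tumour types, soft tissue sarcoma lay above osteosarcoma in each of these sums. How far the other blood cells of the sorted samples set the members' levels there was not tested.

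**Figure D4:**
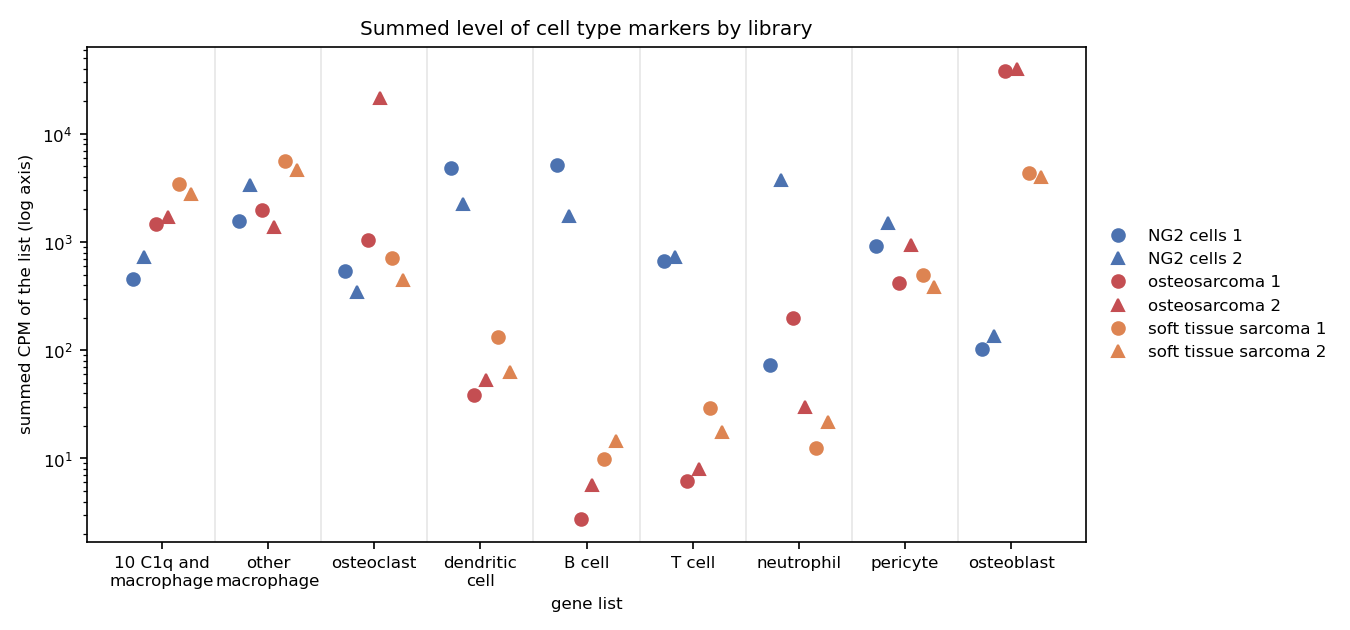
Summed normalised read counts (CPM, log axis) of each gene list in each library; circles are replicate 1 and triangles replicate 2. The 10 C1q and macrophage genes are lowest in NG2 cells, lymphocyte and dendritic cell lists are highest there, and the osteoclast list is highest in osteosarcoma 2 at 21479 CPM.

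The genes whose pattern over the 6 libraries was most like the members were ranked by Pearson's r of log2(CPM + 1) among 11720 genes with a mean of at least 5 CPM. Siglec1, the sialic acid receptor of macrophages also called CD169, came first for the summed C1q genes (r = 0.993), with 1.11 and 0.596 CPM in the NG2 cell libraries, 6.65 and 2.03 CPM in the osteosarcomas and 23.2 and 18.9 CPM in the soft tissue sarcomas. Cnih4, Vcpkmt, Map1s and Hsbp1 followed (r from 0.988 to 0.992), then Gas8, Adh5, E2f8, Mtcl1 and Hebp1 (r from 0.986 to 0.987). For the sum of the other 7 members the first was Kctd17 (r = 0.996), then Hdhd2, the fibronectin gene Fn1, Cdc42bpb and Col16a1 (r from 0.990 to 0.996). Ctsd, a lysosomal protease, was sixth (r = 0.989), with 365 and 682 CPM in the NG2 cell libraries, 628 and 1222 CPM in the osteosarcomas and 1235 and 1185 CPM in the soft tissue sarcomas, and Accs, Lrig3 and Dtx2 came after it (r from 0.985 to 0.988). These values of r describe 6 points that share library and depth, and carry no test.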

How the data were processed

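RNA sequencing measured 6 libraries in 3 groups of 2, from amplified, oligo(dT)-primed cDNA per the labels' protocols. The authors deposited counts of reads per Ensembl gene, which were not normalized. Per the submitters' processing notes, the tools were STAR, HTSeq, cutadapt, Trim Galore, FastQC and DESeq2, and the builds GRCm38 and mm10. Versions and the strand mode were not given in the sources used here. Unassigned reads (22.6% to 35.9%) stayed out of the library sizes. PCR copies cannot be told from separate RNA molecules here.

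Of 38561 gene IDs, 36639 had a symbol in GENCODE M21. The counts were tested with edgeR 4.0.16 in R 4.3.3, with TMM scaling and genes kept by filterByExpr (min.count = 10 and min.total.count = 15 over the groups), which left 19024. One quasi-likelihood model without covariates held all 6 libraries. Benjamini-Hochberg adjustment ran over all tested genes, and a call needed an adjusted p under 0.05. A standard error is the log2 fold change divided by the square root of F. CPM are scaled by TMM, and RPKM use the union exon length. The fit was tested on simulated data.

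The members, the 20 other gene lists and the tests were chosen with earlier results of these data known. Genes are named if they are members or 1 of 11 fixed partner and check genes (Spi1, Csf1, Il34, Tyrobp, Fcer1g, C1ra, C1s1, C3, Cspg4, Trp53 and Ptprc). Up to 3 called genes per list and comparison are named in order of p, and so are the 10 genes most like the summed C1q genes and the 10 most like the other members. Hmgxb3 was named outside that rule, for its overlap with Csf1r. A few genes that the rule takes are not reported here.

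Alternatives were DESeq2 1.42.0, its size factors in edgeR, no filter, a min.count of 50, only the groups compared, a replicate block, no immunoglobulin and mitochondrial genes, and each library left out. A group left with 1 library is assumed to vary like the others. Replicates were checked for identity: 300 of 22320, 302 of 22521 and 368 of 22740 detected genes had equal counts.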

Additional observations from a re-analysis of the deposited data

How the results depend on the processing

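Of 10 members, 4 were called in osteosarcoma against NG2 cells; with only the groups compared in the fit 1 was called (C1qa), with one library left out 0 to 4, and with RLE size factors or without immunoglobulin and mitochondrial genes 3 (C1qb lost). In soft tissue sarcoma against NG2 cells 4 were called, and 0 to 5 with one library left out. Between the tumour types 0 were called, 3 by DESeq2 (C1qa, C1qb and C1qc), and 0 to 1 with one library left out (Mrc1, without osteosarcoma 1). DESeq2 called 6 members in each comparison with NG2 cells, and without a filter 6 were called in soft tissue sarcoma. Some log2 fold changes changed sign when a library was left out, and ranged over those fits as follows: Mrc1 in osteosarcoma from -2.92 to 0.78 (0.16 without NG2 cells 2), Fcgr1 in osteosarcoma from -0.0207 to 2.88, Spi1 in osteosarcoma from -1.25 to 1.55, and between the tumour types Csf1r from -0.0302 to 1.21, Cd68 from -1.37 to 0.33 and Trem2 from -0.0465 to 1.46. None of these was called with all libraries, and the cause was not tested.

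Replicate numbers did not pair the samples: deviations of same-numbered libraries correlated at 0.08, -0.02 and -0.11. With the replicate block 4, 4 and 0 members were called, and genes called over all went from 4086, 3671 and 27 to 2660, 2209 and 8. They were 6988, 6595 and 1929 by DESeq2, 2083, 5452 and 0 with only the groups compared, and between the tumour types 409 without a filter and 80 with a stricter one. With one library left out they ranged from 1278 to 3429, from 0 to 4694 and from 0 to 315. With 2 libraries a group the number of samples limits the precision of every comparison.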

Other observations

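Proteins with a C1q-like globular domain form a family beyond complement, the C1q and TNF related proteins. Of 15 of their genes tested, 2 rose and 1 fell in osteosarcoma and 3 rose and 1 fell in soft tissue sarcoma against NG2 cells, close to the 21.5% and 19.3% of all tested genes called. C1qtnf6 rose from 1.47 and 2.5 CPM to 49.3 and 132 CPM in osteosarcoma (edgeR adjusted p = 0.00710) and to 58.8 and 63.6 CPM in the soft tissue sarcomas (adjusted p = 0.0105, lost without NG2 cells 1). Emilin1, which encodes an elastic fibre protein, rose from 4.41 and 8.87 CPM to 58.8 and 227 CPM and to 102 and 98.4 CPM (adjusted p = 0.0159 and 0.0220). Both Emilin1 calls were lost without NG2 cells 1 and without NG2 cells 2, and the log2 fold change in osteosarcoma ran from 3.16 to 5.09 with one library left out (adjusted p up to 0.0790). C1qtnf9 fell from 23.5 and 35.7 CPM to at most 1.42 CPM in every tumour (adjusted p = 0.00823 and 0.0169), and its call in soft tissue sarcoma was lost without either NG2 cell library.

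Vessel and stroma lists are given beside the same 21.5% and 19.3% of all tested genes called. Of 8 endothelial markers 0 rose and 3 fell in each tumour type. Of 10 pericyte markers 3 rose and 1 fell in osteosarcoma, and 0 rose and 1 fell in soft tissue sarcoma. Of 8 fibroblast markers 1 rose in osteosarcoma and none was called in soft tissue sarcoma by edgeR, where 3 had an unadjusted p under 0.05. Of 8 osteoblast markers all 8 rose in osteosarcoma, and 2 rose and 1 fell in soft tissue sarcoma.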
